A study of Mus musculus with 10 samples.

Results

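The AP-1 and immediate early genes were measured in mouse infrarenal aorta 7 days after the start of elastase-induced abdominal aortic aneurysm (AAA). The set comprised 10 genes, Fos, Fosb, Fosl1, Fosl2, Jun, Junb, Jund, Egr1, Atf3 and Maff, found by their gene names among the spots of the array that are not controls. All 10 were on the array and all 10 were among the 22520 gene names tested, out of 35527 gene names on the array, through 11 tested probes. In the PPE group, porcine pancreatic elastase (PPE, type I, 1.5 U per mL), which digests the elastic fibres of the vessel wall, was infused into the clamped segment over 5 min under a pressure of 100 mmHg. The sham group received saline in the same way. Each group held 5 male C57BL/6J mice operated on when 10 weeks old and killed at day 7, with the RNA of 1 aorta on each array. Both groups therefore had ligatures, an opened and repaired aorta and an infusion, and no unoperated aorta entered the comparison. Tissue was flushed with cold buffer, dissected and frozen individually, so each array reports the whole wall segment with all of its cell types. On each array 500 ng of aortic RNA carried the red dye, and the green dye marked a commercial mouse reference made from a pool of cell lines. Dyes were not swapped. Values are log2 ratios of aorta over reference, and their group difference is the log2 fold change of PPE over sham.

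AP-1 is a family of dimeric transcription factors built from FOS proteins (FOS, FOSB, FOSL1, FOSL2) and JUN proteins (JUN, JUNB, JUND), with ATF and small MAF proteins such as ATF3 and MAFF as further partners, all held together by a leucine zipper. FOS proteins cannot pair with each other and need a JUN partner, whereas JUN proteins can. Most of these genes, and the zinc finger factor gene Egr1, are immediate early genes: growth factors, cytokines, stretch and injury switch them on within minutes through MAP kinases without new protein synthesis, and their short-lived transcripts soon fade. JUND is the member that many resting cells make steadily. Because the response is this fast, dissection of a tissue can itself raise these transcripts, in operated and control animals alike, before the tissue is frozen.

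Short elements just upstream of the start of transcription are known to carry signals to genes of this kind, and a few windows are shown here because they hold letters of the cAMP response, AP-1-like or EGR elements that the search below covered. The windows run 5′ to 3′ on the strand of the gene, come from RefSeq (GRCm38.p6) and have the searched letters in capitals.
Fos, 66 bases before the start, chr12:85473816-85473836, plus strand: ccgcccagTGACGtaggaagt
Fosb, 60 bases before the start, chr7:19310093-19310113, minus strand: gttgcgggTGACGcaagcgcg
Jun, 45 bases before the start, chr4:95052252-95052275, minus strand: cctcggggTGACATCAtgggctat
Maff, 29 bases before the start, chr15:79347483-79347506, plus strand: tggggcggTGACGTCActgcatga
Fosl2, 79 bases before the start, chr5:32136385-32136409, plus strand: ggctgcgcGCGGGGGCGgaagggcg
Windows of 300 bases, from 250 before to 50 after a start, were given for 8 of the 10 members, and both strands were searched. These 8 genes had 10 windows. A member is named if any of its windows held the letters, whereas the shares are of single windows, so the units differ. The Maff window held the full cAMP response element (TGACGTCA), found in 1.79% of 32851 windows of all genes. The shorter form (TGACG), which lies inside the full element, was found for Fos, Fosb, Junb, Atf3 and Maff and in 20.8% of all windows. The Jun window and a second Maff window held the 8-letter relative of an AP-1 site (TGACATCA, 3.62% of all windows). An EGR site (GCGNGGGCG, 5.55%) was found for Fosb, Fosl2 and Maff. None of the 8 had the 7-letter AP-1 site (TGANTCA, 7.81%) or a CArG box, the element bound by serum response factor (1.63%), within these windows. Bases farther upstream were not searched, and Fosl1 and Egr1 had no window. The matches are of letters and not sites shown to be bound.

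The arrays fell on 5 slides. Sham 1, PPE 1 and PPE 2 shared slide 1, which was scanned on another day than the rest. Slide 2 carried the arrays sham 2, sham 3, PPE 3 and PPE 4, and the other 3 arrays had a slide each. The proportion of aortic (red) spots clearly above background ran from 37.6% to 65.8% and did not differ detectably between groups (exact two-sided permutation test, p = 0.484). The tissue label was borne out by smooth muscle genes, whose mean log2 ratio was 3.69 to 4.71 on sham and 1.93 to 3.09 on PPE arrays, with 8 of 10 lower in PPE. Of 12 macrophage markers 9 were higher in PPE (mean log2 ratio 0.92 to 1.40 on sham and 2.65 to 3.90 on PPE arrays), as were 8 of 10 neutrophil and 4 of 8 fibroblast markers, whereas 3 of 8 fat cell markers were lower and none of 8 endothelial markers passed the threshold. For comparison, 13.8% of all names tested were higher and 9.96% lower. Neutrophil genes such as Ngp and Cxcr2 were above background on 0 and 1 sham arrays and were tested through the PPE arrays. Of the 4 neutrophil markers above background on all 10 arrays 2 were higher. Under median centring of the arrays the calls were 2 higher for macrophages, 4 for neutrophils and 0 for fibroblasts, and 0 lower for smooth muscle and for fat cells. In this bulk tissue, fewer cells of a type and less RNA per cell cannot be told apart, and the part of these shifts in the results below was not tested.

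The first question was which of the 10 genes differed between PPE and sham at day 7. Fosb and Jund fell, and none of the 10 rose (limma, adjusted p under 0.01). Over all names tested, 13.8% were higher, 9.96% were lower and 23.8% passed in either direction at this threshold, so the 2 of 10 members that passed are near the share of the array as a whole. By unadjusted p under 0.05, 5 members passed, namely Fosb, Jund, Egr1 and Jun in the lower and Fosl2 in the higher direction. The share of all names at this looser cut was not counted and is at least the 20.2% higher and 14.9% lower given next. The 5 are therefore no result about the members as a set, and Jun had an adjusted p of 0.0888. At an adjusted p under 0.05, which 20.2% of all names passed as higher and 14.9% as lower, Fosl2 was higher and Egr1 joined Fosb and Jund. The fold change was below 0 for 8 members and above 0 for 2, with a median of -0.43 on the log2 scale against 0.02 over all names. In 1 member, Fosb, every PPE array lay below every sham array, as in 10.5% of all names, and in no member did all PPE arrays lie above, as in 14.9% of all names. Centring each array on its median in place of loess moved the median fold change of all names to 0.41 and left 408 higher and 8 lower names, 98.1% of the calls higher against 58.1% with loess. No member passed the threshold under it, and relative to the shift of 0.41 the fold change was -1.20 for Fosb, -0.47 for Jund, 1.14 for Fosl2 and -0.63 for Egr1.

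**Figure D1:**
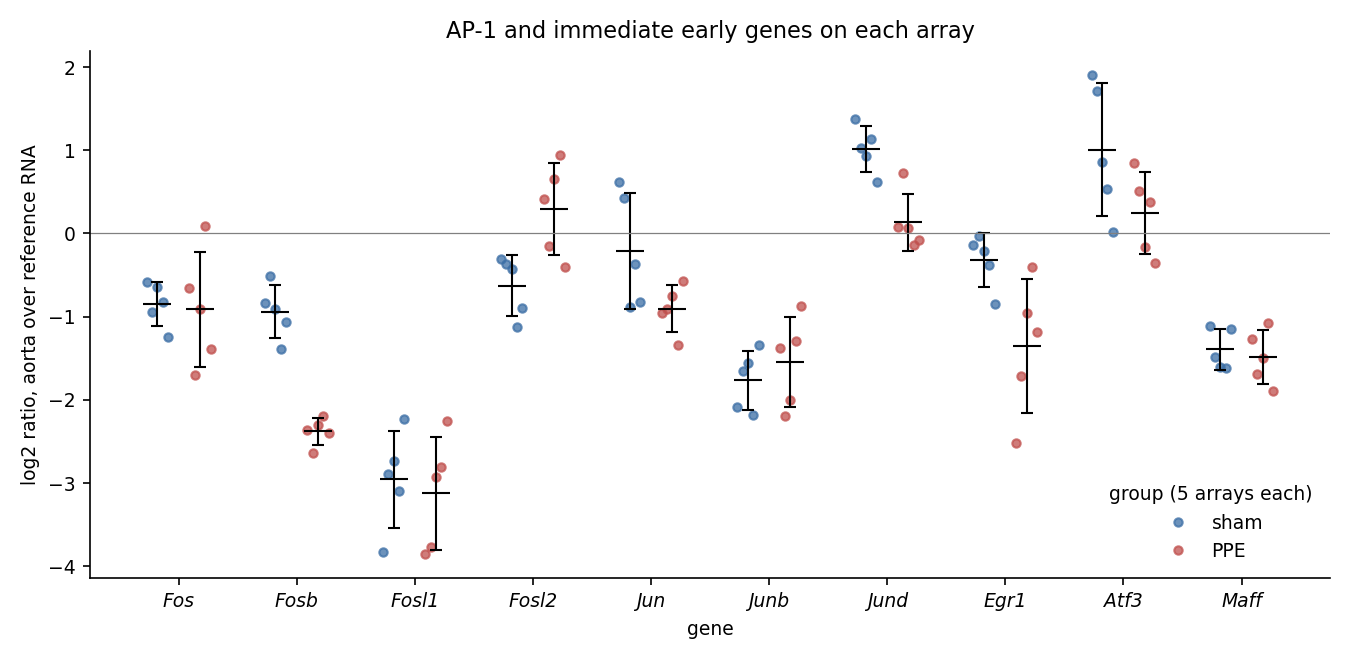
Log2 ratio of aorta over reference (vertical axis) for the 10 genes (horizontal axis) on 5 sham (blue) and 5 PPE (red) arrays after loess, 1 point per mouse, with black bars for mean ± SD. Fosb separated the groups without overlap, from -1.39 to -0.51 in sham and from -2.64 to -2.20 in PPE, while the ranges of the groups overlapped for the other 9 genes.

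Among the FOS genes, Fosb changed most. FOSB is an activating AP-1 subunit, and its probe lies at chr7:19888168-19888227 (mm9, minus strand). The log2 ratios on sham 1 to 5 were -0.84, -0.51, -0.90, -1.39 and -1.07, and on PPE 1 to 5 they were -2.36, -2.64, -2.30, -2.20 and -2.40. All 5 PPE aortas were thus lower than the lowest sham aorta and lay within a narrow band. Fosb fell by 1.44 ± 0.16 (SE) on the log2 scale, 2.71-fold lower in PPE, with a limma adjusted p of 3.54e-05. Within slide 1 the difference was -1.66, and within slide 2 it was -1.54.

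Fos, whose product is the classical partner of JUN, showed no such separation. Its probe is printed 10 times on each array, which gives the noise between spots of 1 array. The sham arrays read -0.58, -0.94, -0.65, -0.82 and -1.24, and the PPE arrays read -0.65, -1.70, -0.91, 0.09 and -1.38. PPE aortas thus held both the highest and the lowest Fos level of the series, with PPE 4 above and PPE 2 below all 5 sham aortas. The SD over spots of 1 array was 0.04 to 0.25, and the SD between arrays, which holds labelling, hybridisation and slide error as well as the difference between mice, was 0.26 in sham and 0.69 in PPE. The log2 fold change was -0.06 ± 0.29 (SE), with a 95% confidence interval from -0.70 to 0.57 and an adjusted p of 0.892, so a fall of 0.70 or a rise of 0.57 could not be told from no change. Leaving out sham 1, PPE 2 or PPE 5 turned its sign (0.0020, 0.13 and 0.053), as did median centring (0.57, or 0.16 relative to the shift of 0.41 in all names).

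Fosl2 was the member with the largest positive difference. FOSL2 (FRA2) lacks a strong activating domain, is made later and longer than FOS after a stimulus and has been tied to fibrosis. Its brightest probe (chr5:32460076-32460135, mm9) read -0.31, -0.37, -0.43, -1.13 and -0.90 on the sham arrays and 0.42, -0.15, 0.66, 0.94 and -0.40 on the PPE arrays. PPE 1 to 4 lay above all sham arrays and PPE 5 lay among them. The log2 fold change was 0.92 ± 0.26 (SE), 1.89-fold, with an adjusted p of 0.0173, which missed the threshold. Leaving out any 1 array gave 0.76 to 1.09 with the adjusted p between 0.0044 and 0.0476. Of these 10 fits only the one without PPE 5 (1.09) passed the threshold. A second, dimmer probe of Fosl2 (chr5:32455088-32455147), above background on 6 of 10 arrays, gave a fold change of 0.11 with an adjusted p of 0.683, so the probes disagreed. Within slides 1 and 2 the brighter probe differed by 0.44 and 1.20.

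Fosl1, which encodes FRA1, an inducible subunit known from invasive and migrating cells, was far below the reference RNA on every array. The sham arrays read -3.83, -2.89, -2.74, -3.09 and -2.22, and the PPE arrays read -3.85, -3.77, -2.93, -2.81 and -2.25. The arrays of slide 1, sham and PPE alike, lay between -3.85 and -3.77, and all others lay between -3.09 and -2.22. The gap thus ran with slide 1, which was also the 1 slide of its scan day, so slide and scan day cannot be told apart. In the authors' series matrix the slide 1 arrays (-4.68 to -4.41) still lay below the others (-4.38 to -3.14), whereas the ranges overlapped after median centring and in the red channel alone. The log2 fold change of PPE over sham was -0.17 ± 0.35 (SE, adjusted p = 0.756), it was 0.021 within slide 1 and -0.056 within slide 2, and its sign turned under 5 of 13 other settings. Median centring was among these (0.35), with -0.06 relative to the shift of 0.41 in all names.

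Of the JUN genes, Jund fell. JUND is the JUN protein of resting cells and is known to restrain growth and oxidative stress in several tissues. Its probe (chr8:73224436-73224495, mm9) read 1.38, 1.03, 0.92, 1.13 and 0.62 on the sham arrays and 0.08, 0.72, 0.07, -0.13 and -0.08 on the PPE arrays. Sham aortas were all above the reference RNA, and 4 of 5 PPE aortas were near it, with PPE 2 reaching into the sham range above sham 5. Jund fell by 0.88 ± 0.18 (SE) on the log2 scale, 1.85-fold lower, with an adjusted p of 0.00286. The difference was -0.97 within slide 1 and -1.01 within slide 2, and leaving out any 1 array gave -1.03 to -0.80 with the adjusted p between 0.000424 and 0.00927.

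Jun itself, the strongest activator of the family and the main substrate of the JUN kinases, read 0.62, 0.42, -0.89, -0.37 and -0.82 on the sham arrays and -0.95, -0.91, -0.76, -1.34 and -0.57 on the PPE arrays. The sham arrays spread widely (-0.21 ± 0.70, SD, n = 5) and the PPE arrays did not (-0.91 ± 0.28), and 2 sham arrays fell inside the PPE range. The fold change was -0.70 ± 0.29 (SE, adjusted p = 0.0888), with -1.56 within slide 1 and -0.81 within slide 2. Median centring gave 0.12, which was -0.29 relative to the shift of 0.41 in all names. With slide as a block the fold change was -1.11 with an adjusted p of 0.033.

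Junb, which often opposes JUN in growth control, read -2.09, -1.66, -1.56, -2.18 and -1.34 on the sham arrays and -1.37, -2.20, -2.00, -1.30 and -0.87 on the PPE arrays. The ranges overlapped almost whole, and sham 5 was the 1 array of 10 on which the probe was not well above background. The fold change was 0.22 ± 0.26 (SE), with a 95% confidence interval from -0.35 to 0.78 and an adjusted p of 0.565. Within slides 1 and 2 it was 0.30 and -0.040.

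**Figure D2:**
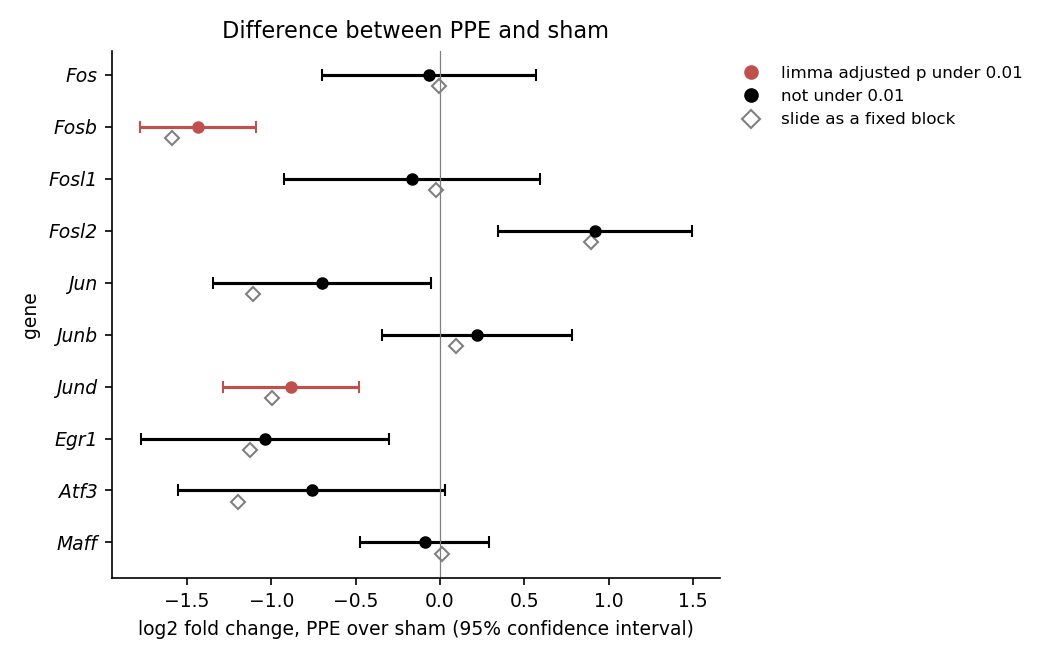
Log2 fold change of PPE over sham (horizontal axis) with its 95% confidence interval for each gene (vertical axis), after loess, with red points for an adjusted p under 0.01 and open diamonds for the same fit with slide as a block. The intervals of Fosb (-1.78 to -1.09) and Jund (-1.29 to -0.48) lie well below 0, and Atf3 moves most with the block, from -0.76 to -1.20.

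Egr1 encodes a zinc finger factor that growth factors, shear stress and injury induce in vascular cells. It read -0.14, -0.03, -0.21, -0.37 and -0.85 on the sham arrays and -2.52, -1.71, -0.96, -0.40 and -1.18 on the PPE arrays. All PPE aortas but PPE 4 were below every sham aorta, and the PPE values covered a much wider range. The fold change was -1.04 ± 0.34 (SE), 2.05-fold lower, with an adjusted p of 0.0319, which missed the threshold. Leaving out any 1 array gave -1.27 to -0.74 with the adjusted p between 0.00825 and 0.0744. Of these 10 fits only the one without PPE 4 (-1.27) passed the threshold. Within slide 1 the difference was -1.98 and within slide 2 it was -0.56.

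Atf3, which encodes a stress-induced partner of JUN proteins, read 1.91, 1.71, 0.86, 0.54 and 0.02 on the sham arrays and 0.85, 0.52, -0.16, 0.38 and -0.35 on the PPE arrays. Its spread within groups was the widest of the 10 genes, with the sham aortas at or above the level of the reference. The fold change was -0.76 ± 0.36 (SE, adjusted p = 0.129). With slide as a block it was -1.20 with an adjusted p of 0.00597, and it was -1.22 within slide 1 and -1.18 within slide 2. On these 2 slides each sham aorta was thus compared with PPE aortas of the same slide, while sham 4, sham 5 and PPE 5, the 3 arrays with a slide of their own, do not enter the block's difference.

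Maff encodes a small MAF protein without an activating domain. The sham arrays read -1.12, -1.48, -1.61, -1.61 and -1.15, and the PPE arrays read -1.27, -1.69, -1.50, -1.07 and -1.90. The ranges overlapped, with PPE 4 highest and PPE 5 lowest of all 10. The fold change was -0.09 ± 0.17 (SE, adjusted p = 0.731), with a 95% confidence interval from -0.47 to 0.29. It changed sign under median centring (0.50, or 0.09 relative to the shift of 0.41 in all names) and with slide as a block (0.010).

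**Figure D3:**
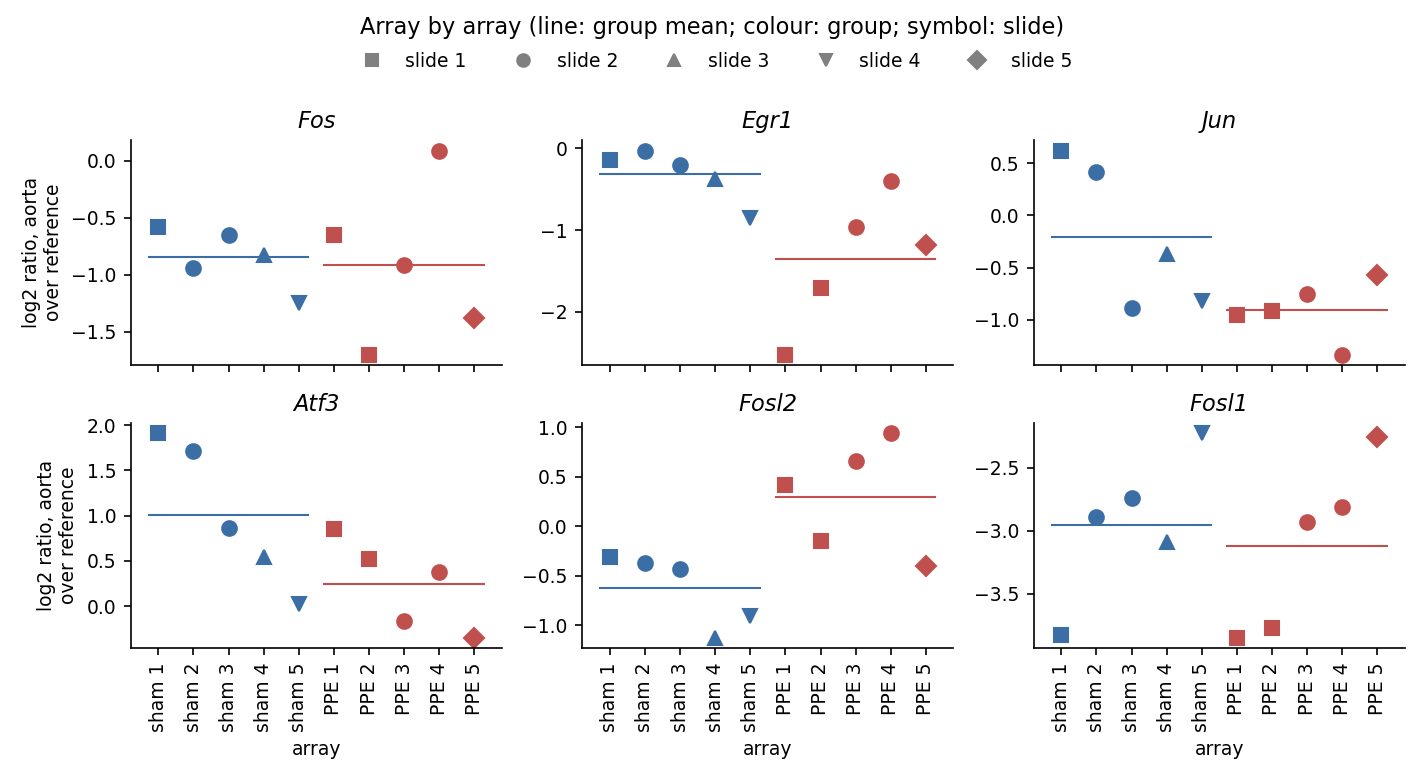
Log2 ratio of aorta over reference (vertical axes) on each array (horizontal axes) for 6 of the genes, with sham in blue, PPE in red, a symbol for each slide and a line at each group mean. Fos reached both its highest value (0.09, PPE 4) and its lowest (-1.70, PPE 2) in PPE, and the 3 Fosl1 values of slide 1 lie apart from the other 7.

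The members differed in how much they varied between arrays of the same group. This spread holds labelling, hybridisation and slide error as well as the difference between mice. For Fosl1 the values after loess lay apart on slide 1, as given above. The SD within groups was 0.66 for Atf3, 0.63 for Fosl1, 0.61 for Egr1, 0.53 for Jun and 0.52 for Fos, each larger than in at least 90.2% of the names tested, whose median was 0.25. It was 0.47 for Fosl2 and 0.46 for Junb, larger than in 86.9% and 86.1% of names. It was 0.25 for Fosb, 0.29 for Maff and 0.31 for Jund, larger than in 52.2%, 61.5% and 66.6% of names. The inducible genes were therefore found both among the more variable names and near the middle. Sham 1 was the highest sham array for 6 of the 10 genes, and sham 4 and sham 5 were each the lowest for 4. In PPE the highest array was PPE 4 for 5 genes. Sham 1 and sham 5 also stood at opposite ends of the sham group in the share of red spots above background (62.1% and 37.6%). Sham 4 had a share of 57.8%, close to that of sham 1, and sham 5 was also the highest sham array for 2 genes. The part of that share in the order was not tested.

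Genes that act with, before and after AP-1 were counted in the same fit, in which 13.8% of all names were higher and 9.96% lower. Among 22 other bZIP partner and relative genes, 8 rose (36.4%) and 4 fell (18.2%). Those with the largest increases were Batf (3.14), a JUN partner of immune cells, Atf7 (2.46) and Batf2 (2.38), and those with the largest decreases were Atf5 (-1.49), Mafk (-0.71), another small MAF gene, and Ddit3 (-0.56), which encodes the stress factor CHOP. Batf read -0.67 to -0.04 on sham and 2.09 to 3.52 on PPE arrays, and its fold change was larger in size than that of any member.

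The other immediate early genes moved in both directions. Of 27 tested, 6 rose (22.2%), 5 fell (18.5%) and 16 did not pass, with a median of -0.21. Among all names the shares were 13.8% and 9.96%. The count that fell was 2 to 6 when 1 array was left out. Socs3 (2.09), a cytokine-induced inhibitor of JAK signalling, Egr2 (1.89), a relative of Egr1, and Myc (1.10) rose most. Nr4a1 (-1.90), an orphan nuclear receptor, Dusp1 (-1.14), the phosphatase that switches off p38 and JUN kinases, and Per1 (-0.99), a clock gene, fell most. Egr2 was between -1.19 and -0.48 on sham and between 0.62 and 1.72 on PPE arrays, without overlap, whereas Egr1, given above, had an adjusted p of 0.0319 and overlapping groups, and the difference between the 2 genes was not tested. Nr4a1 read 1.99, 2.15, 1.46, 1.42 and 0.23 on sham and -0.83, -0.66, -0.51, 0.55 and -0.78 on PPE arrays.

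Upstream, 4 of 20 MAP kinase and serum response genes rose (20%) and 1 fell (5%), not far from the 13.8% and 9.96% of all names. Elk3 (1.06), Mkl1 (0.99), a coactivator of serum response factor, and Map3k1 (0.65) rose most, and Srf (-0.92), serum response factor itself, fell. Of 16 feedback genes 3 rose (18.8%) and 5 fell (31.2%, a count of 2 to 5 when 1 array was left out). Dusp2 (3.09), Dusp6 (1.39) and Spred1 (0.98) rose, and Dusp8 (-1.52), Dusp14 (-1.30) and Dusp1 fell most. Dusp2 is known from activated immune cells, and DUSP6 is the phosphatase specific to ERK.

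Downstream, 16 of 20 genes described as having AP-1 sites in their promoters rose (80%) and 1 fell (5%), with a median of 1.77. Among all names 13.8% rose and 9.96% fell. The list was chosen with earlier results of these data known, so its share is no independent evidence, and AP-1 activity was not tested. Il6, Mmp13 and Mmp12 were above background on no sham array and were tested only through the 5 PPE arrays, and of the 15 genes above background on all 10 arrays 11 rose and 1 fell, with a median of 1.68. For Il6 and the collagenase gene Mmp13 the fold is therefore a lower bound on red channel values after loess and scaling between arrays (Aquantile), taken against the higher, per array, of the probe's own signal and the dimmest probe above background and open to dye bias. It was at least 15.98-fold higher in PPE for Il6 and at least 16.7-fold for Mmp13. No p-value is set beside these bounds, since the fit tested the log2 ratios and not the bounds. Timp1 (3.46), an inhibitor of matrix proteases, rose too, and Nqo1 (-1.16), an antioxidant enzyme gene, fell. Many of these genes are also made by macrophages and fibroblasts and respond to other factors such as NF-kB.

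Heat shock genes, another set that handling and stress can induce, were given beside the members for that reason. Of 8 tested none rose and 4 fell (50%, against 9.96% of all names), among them Hspa1a (-1.96), Hspb1 (-1.46) and Hspd1 (-1.03). Their mean log2 ratio was 0.50, 0.64, 0.34, 0.07 and -0.12 on sham 1 to 5 and between -0.61 and -0.49 on the PPE arrays. The 5 PPE aortas were thus alike and the sham aortas ran from sham 2 down to sham 5. Whether tissue handling had a part in either the heat shock genes or the members was not tested, since no unoperated aorta or handling time entered the comparison.

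**Figure D4:**
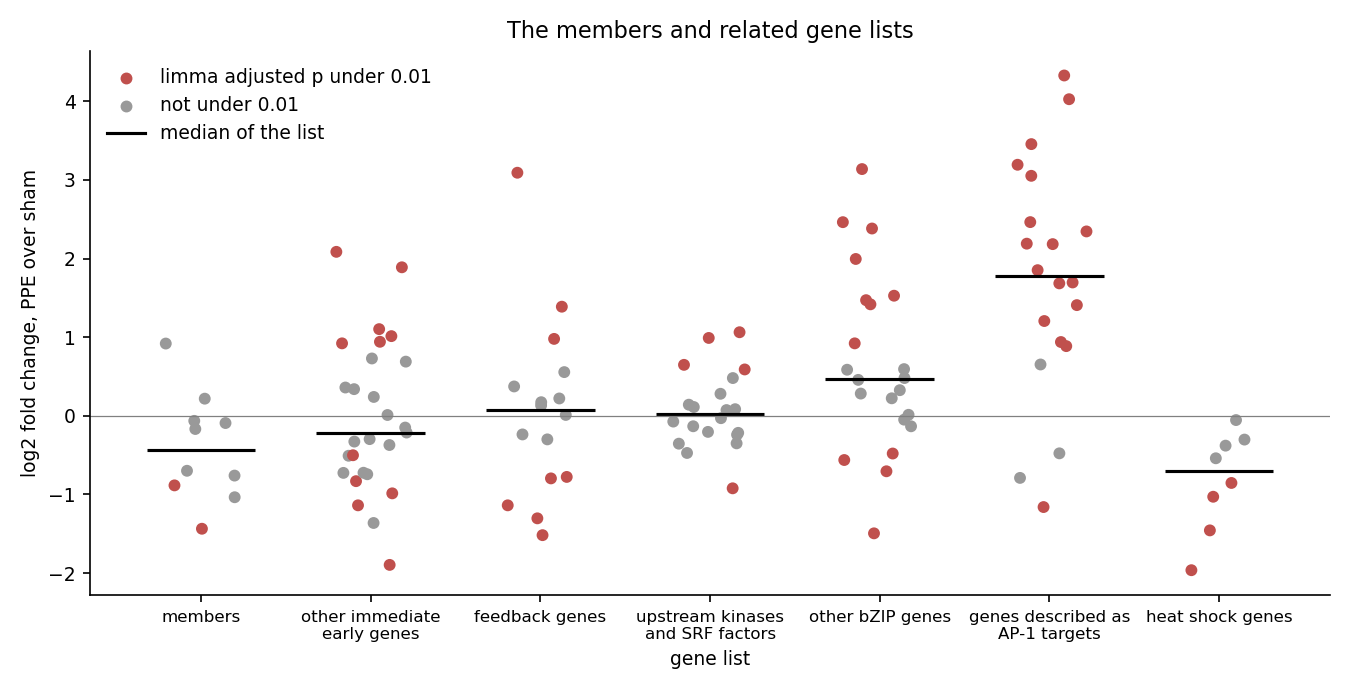
Log2 fold change of PPE over sham after loess (vertical axis) for every tested gene of the 10 members and of 6 related lists (horizontal axis), with red points for an adjusted p under 0.01 and a line at each median. The members had a median of -0.43, the genes described as AP-1 targets one of 1.77, and the other immediate early genes spread on both sides. After median centring the medians were 0.23, 2.25 and 0.53.

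Under median centring, which shifts all names by 0.41, the counts of higher and lower genes were 2 and 0 for the other immediate early genes and 1 and 0 for the bZIP genes. They were 0 and 0 for the upstream genes, 1 and 0 for the feedback genes and 5 and 0 for the genes described as AP-1 targets. For the heat shock genes they were 0 and 0, with a median of 0.047 in place of -0.70. With loess, Dusp1, Map3k1, Ddit3, Per1 and Srf kept the threshold in 2, 2, 4, 5 and 6 of the 10 fits that left out 1 array. The macrophage, neutrophil and smooth muscle markers given above differed between the same groups with loess, and their part in these lists was not tested.

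Fos was also set against all 10638 named genes above background on all 10 arrays, after each group mean was removed. The genes most like it over the 10 arrays were Zswim6 (Pearson r 0.95), Ddx28 (0.94), Tpmt (0.93), Naa15 (0.93) and Gm5899 (0.93), and none of them is a known immediate early gene. The values rest on 10 arrays that share slides and on the wide PPE values, and so many genes were searched that values of this size are given as a description only. Among the members searched, all but Junb, Fosl2 (0.79) and Maff (0.63) were most like Fos and Jund (-0.32) was least. Most of the other immediate early genes searched, looked up after the values were seen, had r above 0. Socs3, Klf6, Arc, Gadd45b, Ier5 and Klf4 had r below 0. The values ran from Dusp1 (0.85, rank 56) down to Klf4 (-0.58, rank 9645).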

How the data were processed

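The authors hybridised the RNA of 1 aorta per array (red, Cy5) with a universal mouse reference (green, Cy3) and quantified the images with Agilent Feature Extraction 10.7.3.1. Arrays of poor quality and outliers in clustering had been left out by then, which the study's methods say without naming them. Each deposited file gives, per spot, a signal and a local background as intensity values (linear). The LogRatio column that the authors deposited is red over green as log10. The scale of the deposited series matrix is not stated, and its values, taken as log2, equalled log2 of processed red over green on 100% of spots within 1e-04. Its column medians ran from -0.16 to 0.12, so it is not centred on 0. No spot was saturated.

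From mean signals and median local backgrounds, limma 3.58.1 in R 4.3.3 corrected background (normexp, offset 50) and normalised each array by loess (span 0.3, 4 iterations), with control spots and 176 to 331 outlier spots per array at weight 0. The offset draws dim ratios towards 0. Spots of a probe were averaged. Probes entered the test when aortic signal was clearly above background on at least 5 of 10 arrays, and a gene is its brightest tested probe. Groups, taken from the labels, were compared by lmFit and eBayes, two-sided and unpaired, adjusted by Benjamini-Hochberg over 22520 names, with a threshold of 0.01 after the study's false discovery rate. The study's SAM was not run. The fit was tested on simulated data. Probe positions are those of the files, on mm9, and no annotation of exons on mm9 was used. Alternatives were the background correction, normalisation, source of the ratio, filter, probe rule, threshold, slide, scan day or replicate blocks and leaving out arrays. The members and lists were chosen with earlier results of these data known. Besides the members, up to 3 genes per direction with the largest changes past the threshold were named from each list.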

Additional observations from a re-analysis of the deposited data

Results flagged for a closer look

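Jund on PPE 2 stood apart from the other PPE arrays. Its log2 ratio was 0.72, and the nearest of the other 4 was 0.08, a gap that took a share of 0.748 of the range of the group against a critical value of 0.71 for 5 samples. It was the 1 such array among 22 groups checked, which were the sham and the PPE arrays for each of the 10 genes and for the share of red spots above background, and chance alone passes about 1 in 20 groups. PPE 2 also had the highest mean log2 ratio of the PPE arrays over the 10 smooth muscle markers (3.09, against 1.93 to 2.11 on the other 4) and over the 8 fat cell markers (5.11, against 3.70 to 4.10). The part of these in the Jund value was not tested. Without PPE 2 the fold change of Jund was -1.03 with an adjusted p of 0.000424.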

How the results depend on the processing

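Median centring in place of loess changed the results most. It left 408 higher and 8 lower names, 0 lower members and 9 higher and 0 lower genes of the related lists, against 37 and 19. Fosb (-0.79) and Jund (-0.061) kept their direction and lost the threshold, and the sign turned for Fos (0.57), Fosl1 (0.35), Jun (0.12), Maff (0.50) and Ddit3 (0.057). Median centring shifted all names by 0.41. Relative to that shift Fos (0.16) and Maff (0.09) were above 0, Fosl1 (-0.06) and Jun (-0.29) stayed below 0, and Ddit3 lay below the shift. The sign of Fosl1 also turned with the LogRatio (0.16), the series matrix (0.16), the red channel alone (0.22) and scan day as a block (0.057). That of Maff turned with slide as a block (0.010) and without sham 5 and PPE 5 (0.072), a setting chosen after seeing the data. Atf3 passed the threshold with slide as a block (-1.20). At an adjusted p under 0.05 the members higher were 1, and Fosl2 (0.92) and Egr1 (-1.04) passed. The Il6 lower bound of the fold was 26.2 with an offset of 16 for normexp. Fosb and Jund stayed past the threshold in each of the other alternatives, and the cause of these changes was not tested. Junb had no value under the stricter filter, 10 of 10 arrays above background.

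Leaving out 1 array gave 2512 to 3615 higher and 1754 to 2352 lower names, 0 to 1 higher and 2 to 3 lower members, and 33 to 37 higher and 10 to 21 lower genes of the related lists. The fold changes ranged from -0.31 to 0.13 for Fos, -1.55 to -1.33 for Fosb, -0.39 to 0.015 for Fosl1, 0.76 to 1.09 for Fosl2, -0.87 to -0.49 for Jun, 0.048 to 0.38 for Junb, -1.03 to -0.80 for Jund, -1.27 to -0.74 for Egr1, -1.01 to -0.54 for Atf3 and -0.20 to 0.011 for Maff.

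The labels do not say that the replicate numbers shared by the groups pair the mice, and the values did not show a pairing. Deviations of same-numbered arrays correlated at 0.29, -0.30, 0.16, -0.14 and 0.52. Of the sham arrays only sham 5 correlated best with the PPE array of its own number. Some of these arrays share slides, so the correlations cannot settle whether mice were paired. With the number as a replicate block, 3022 names were higher and 2283 lower, and the members' fold changes and calls were the same. With 5 mice a group, changes of members with an SD near 0.6 are measured only to within about 0.7 on the log2 scale.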
